A study of Mus musculus with 20 samples.

Results

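The nuclear-encoded genes of the mitochondrial respiratory chain were followed as a set in the kidneys of aged, marrow-transplanted mice. The respiratory chain passes electrons from NADH and succinate to oxygen through complexes I to IV of the inner mitochondrial membrane, and complex V, the ATP synthase, uses the resulting proton gradient to make ATP. Complexes I, III, IV and V are assembled from subunits encoded in the nucleus and in the mitochondrial genome, whereas complex II is encoded in the nucleus alone. Kidney tubules, above all the proximal tubule and the thick ascending limb, depend on this machinery for the reabsorption of solutes.

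Members were all genes whose symbols named subunits of complex I (Nduf with a, b, c, s or v and a number), complex II (Sdha to Sdhd), complex III (Uqcr), complex IV (Cox4 to Cox8) or complex V (Atp5), with pseudogene symbols dropped and with a mean of at least 1 CPM (counts scaled to a common total, with TMM factors). In the table of Control and LOY kidneys 84 of 26608 named genes matched and 78 reached this level, and 77 of these passed the count filter of the test. In the table of the compound-treated kidneys 83 of 30809 matched, and 80 reached the level and were tested. The tested members comprised 35, 3, 7, 15 and 17 genes of complexes I to V in the LOY table and 37, 4, 8, 14 and 17 in the ABT263 table. Nearest to the level were Cox6a2 (mean 1.24 CPM) inside and Ndufa8 (0.582 CPM) outside in the LOY table, and Cox8b (3.42 CPM) inside and Cox4i2 (0.936 CPM) outside in the ABT263 table. A few matching symbols stand for proteins that are not subunits. Cox4nb is an older symbol of an endoplasmic reticulum membrane protein. Atp5s is named for an ATP synthase factor, and Atp5sl, an older symbol of Dmac2, as a gene like it.

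The study compared kidneys of aged mice that had received marrow giving a Control or a LOY blood system, where LOY stands for blood-forming cells that have lost the Y chromosome. Control animals (n = 6) and LOY animals (n = 6) formed the first table. A separate table held LOY animals given a control compound (n = 4) or ABT263 (n = 4), a senolytic inhibitor of BCL-2 family proteins. All animals had thus been transplanted, all those of the second table carried LOY marrow, and the genotype belonged to the blood system while most kidney cells were the host's. The sources used here give no dose, duration or exact age, nor how the Y chromosome was lost. Total counts per kidney lay between 13332563 and 19386408 in the LOY table and between 14587809 and 20791633 in the ABT263 table. The labelled tissue carried its markers, with 14 of 14 proximal tubule genes tested in each table.

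Many respiratory chain promoters carry sites for NRF1, for the ETS factor GABP or for YY1, regulators that are known to drive these genes together. RefSeq promoters of GRCm38.p6 (windows of 300 bases, from 250 before the start to 50 after it) were used. They were matched for 71 symbols of the kinds named above, taken without the level of 1 CPM, with 77 promoters. The letters CGCATGCG, the core of the NRF1 site, were present on either strand in 9 of the 77 (11.7%), against 1.87% of 32851 promoters in the reference. The ETS letters CCGGAAGT were present in 5 (6.49%, against 3.89%) and the YY1 letters AAGATGGC in 12 (15.6%, against 2.75%). At least 1 of the 3 was present in 24 (31.2%, against 8.07%). These letters were searched without allowing any mismatch, and a match is not a measured binding site. The stretches below are shown as examples of the 3 motifs before genes of complexes I, III, IV and V, with a pair of motifs each for Uqcr11 and Atp5j. Each is read 5′ to 3′ on the strand of its gene, with the matched letters in capitals and 10 bases on either side.
Ndufa11, NRF1 core, chr17:56717693-56717720, plus strand: ctgcactgcgCGCATGCGcgcacgcctt
Uqcr11, NRF1 core, chr10:80406809-80406836, minus strand: atcgccttcaCGCATGCGctatacgtct
Cox6a1, NRF1 core, chr5:115349102-115349129, minus strand: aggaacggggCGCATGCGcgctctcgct
Atp5j, NRF1 core, chr16:84835106-84835133, minus strand: ggccagaataCGCATGCGtacagtgcag
Atp5k, NRF1 core, chr5:108434431-108434458, minus strand: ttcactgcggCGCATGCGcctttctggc
Atp5j, YY1, chr16:84835047-84835074, minus strand: aagtgtaggaAAGATGGCggagtcttag
Uqcr11, ETS, chr10:80406870-80406897, minus strand: tctctcctccCCGGAAGTagatgtcaat
The matched letters began 59 bases before the RefSeq start in Ndufa11, 161 in Cox6a1, 147 in Atp5j and 49 in Atp5k. The YY1 letters of Atp5j began 88 bases before its start.

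The first comparison asked whether a LOY blood system changed these genes in the kidney. No member passed the edgeR quasi-likelihood test at a Benjamini-Hochberg adjusted p of 0.05, with 0 of 77 higher (1.11% of all 14978 genes tested) and 0 lower (0.0601%). At an unadjusted p under 0.05, 5 members were higher (13.5% of all genes) and 3 lower (9.33%). DESeq2 also called 0 members, beside 4.08% of all genes higher and 1.82% lower, and so did limma voom, beside 4.6% and 2.49%. The log2 fold changes nevertheless leaned upward, being positive for 59 of 77 members (52.3% of all genes), with a median of 0.28 beside 0.02 over all genes. The median was 0.30 for complex I, 0.04 for complex II, 0.24 for complex III, 0.37 for complex IV and -0.02 for complex V. The complex V median was the value of Atp5sl, which like Atp5s is not a subunit. Of the 17 members of complex V, 8 were positive, the smallest of them Atp5o (0.28). The other 9 were negative, among them Atp5s and Atp5sl.

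The size of that lean rested largely on 1 kidney, its direction less so. LOY animal 8 had the highest level of 60 of the 77 members (it was highest for 27.5% of all genes). Without LOY animal 8 the median was 0.07, with 54 of 77 positive. Without LOY animal 8 and Control animal 3 the median was 0.14 (56 of 77 positive), and without LOY animals 8 and 10 it was 0.11 (57 positive). Without LOY animals 8, 10 and 18 (chosen after the data were seen) it was 0.25 (67 positive). LOY animal 18 had the lowest level of 49 members (8.07% of all genes) and LOY animal 10 of 19 (13.3% of all genes). Each gene's log2 CPM was set against its own mean over the table, and the median of these deviations over the members gave 1 score per kidney. It was 0.85 in LOY animal 8, 0.31 in animal 9, 0.19 in animal 5, -0.12 in animal 14, -0.23 in animal 10 and -0.43 in animal 18. The Control kidneys lay between -0.18 and -0.10, apart from Control animal 3 at 0.13. The LOY kidneys thus stood on both sides of the Control kidneys.

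**Figure D1:**
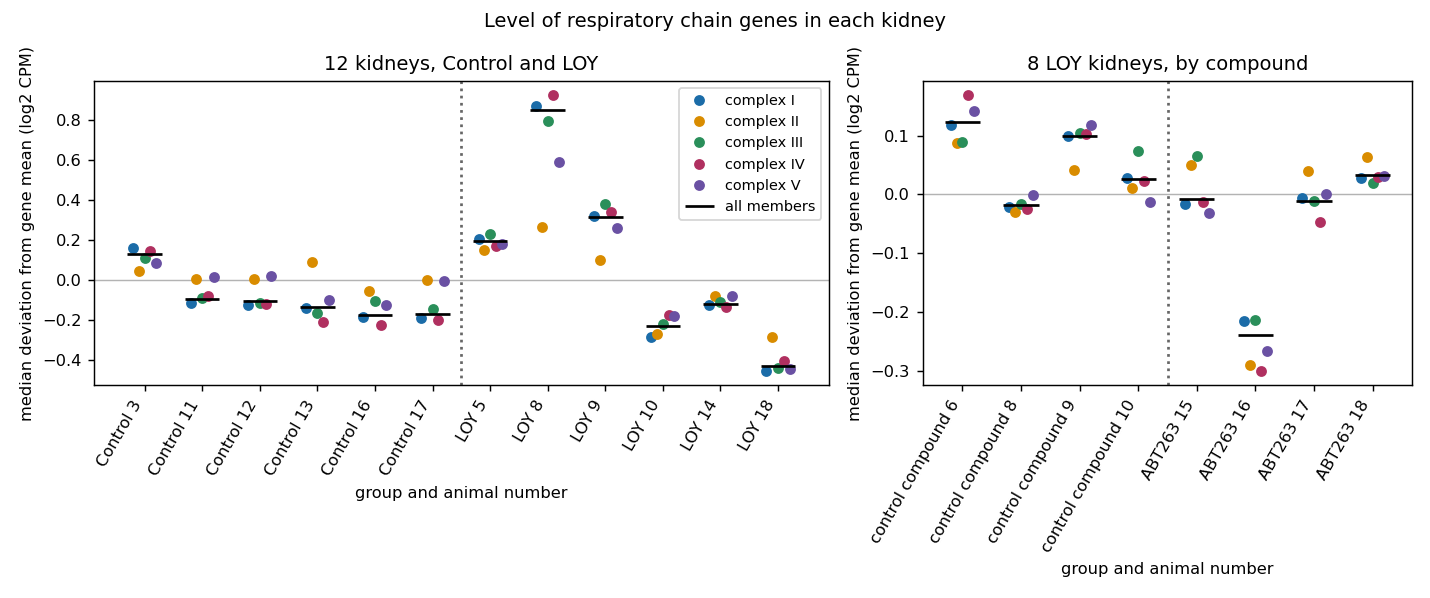
Median deviation of the members of each complex from their gene means (vertical axis, log2 CPM) in each kidney (horizontal axis, group and animal number), with a bar for all members together and a dotted line between groups. LOY animal 8 is highest (0.85) and LOY animal 18 lowest (-0.43) in the left plot, and ABT263 animal 16 is lowest (-0.24) in the right plot.

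The spread itself was wider under LOY. The SD of log2 CPM was larger among the LOY kidneys for 74 of 77 members (96.1%), as it was for 80.6% of all genes, with a median SD of 0.15 in Control and 0.48 in LOY kidneys. Summed over the members, the share of all counts ran from 2.37% to 2.74% in Control kidneys and from 2.13% (animal 18) to 3.46% (animal 8) in LOY kidneys. For no member did the groups lie wholly apart (background 1.35% higher and 0.694% lower).

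Other RNA classes also varied between these kidneys, not always along with the member score, and their part in the result was not tested. The median deviation of 83 cytosolic ribosomal protein genes was 1.13 in LOY animal 8, 0.33 in animal 9 and 0.21 in animal 5, and it was -0.35 in animal 18. The share of the ribosomal RNA precursor Rn45s was highest in Control animal 3 (0.633%) and LOY animal 8 (0.565%). Control animal 12 came next (0.479%), with a member score of -0.11. The score of 14 proximal tubule markers was -0.84 in LOY animal 10 and -0.47 in LOY animal 8, against -0.02 to 0.52 in Control kidneys. Of the 14 markers, 13 had a negative log2 fold change, with 0 past the threshold. Their summed CPM was nevertheless highest in LOY animal 8 (65065, against 38528 to 43977 in Control kidneys). Thick ascending limb (6 of 7) and distal convoluted tubule genes (5 of 5) were also mostly negative, with 0 past the threshold. Of 9 collecting duct genes 5 were negative. Of 8 tubular injury genes 7 rose past the adjusted threshold in edgeR, as did 5 of 9 macrophage and 3 of 7 T cell genes (1.11% of all genes). At an unadjusted p under 0.05 in edgeR, 8 of 8 injury, 8 of 9 macrophage and 7 of 7 T cell genes were higher (13.5% of all genes). Every LOY score lay above every Control score for macrophage (0.18 to 0.87, against -0.93 to 0.11) and T cell genes (0.09 to 0.89, against -1.11 to -0.10). For injury genes the scores overlapped (0.13 to 1.37, against -1.21 to 0.17). The calls past the adjusted threshold changed with the kidneys left out. Without Control animal 16 or Control animal 17, 0 genes of the 3 lists passed. Without Control animal 11, 12 or 13, or without LOY animal 10, 0 injury genes, 0 T cell genes and at most 2 macrophage genes passed, and without LOY animal 5, 9 or 14 the T cell count was 0. Over all genes the number called higher was 167 with all kidneys and ran from 0 to 478 with each kidney left out. In whole tissue, fewer cells of a type and less RNA per cell cannot be told apart.

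Animal number, which the labels give without saying what it stands for, ran along with the level of these genes. With number above 10 as a term in the edgeR fit, the members' median for LOY was 0.01 and that for number above 10 was -0.52, negative for 70 of 77 members. Control animal 3 was the only Control kidney numbered up to 10, beside 4 LOY kidneys, so this fit leans on a kidney that stood apart for many members. With the term, 0 genes of any kind passed for LOY in edgeR. For the term itself 1 member was lower past the threshold (Ndufc1, an accessory subunit of complex I, -0.80, adjusted p = 0.0428 in edgeR), beside 1.76% of all genes lower and 2.4% higher. Among animals numbered above 10 alone, 2 LOY against 5 Control kidneys, the LOY median was -0.12, with 5 of 77 positive, and 1 member fell (Atp5sl, -0.37, adjusted p = 0.0211 in edgeR; -0.02 ± 0.15 over all 12 kidneys), where 0.629% of all genes were lower and 2.27% higher. That split does not use Control animal 3. Its 2 LOY kidneys were animals 14 and 18, with member scores of -0.12 and -0.43 over all 12 kidneys. LOY animals 5, 8 and 9, which had positive scores, fell outside it. The negative median therefore restates the scores of those 2 kidneys, and the split cannot tell animal number from differences between single kidneys.

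In complex I, which oxidises NADH, 31 of 35 log2 fold changes were positive. The accessory subunits, which surround the core subunits and here include Ndufa4, were positive in 27 of 28 cases with a median of 0.35. Ndufa11, a membrane-arm subunit, ran from 132 to 193 CPM with a median of 145 in Control kidneys, and from 127 to 463 with a median of 191 in LOY kidneys. Its log2 fold change was 0.59 ± 0.25 (SE, adjusted p = 0.193 in edgeR), with the groups overlapping and LOY animal 8 far above the rest.
Ndufa5, an accessory subunit of the matrix arm, ran from 124 to 179 CPM (median 137) in Control kidneys and from 114 to 463 (median 170) in LOY kidneys, a log2 fold change of 0.63 ± 0.28 (adjusted p = 0.201 in edgeR). Ndufa4, at 467 CPM the most abundant Nduf gene by CPM and now counted with complex IV, differed by 0.13 ± 0.16.

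The core subunits of complex I behaved less evenly, with 4 of 7 positive and a range of -0.41 to 0.48. Ndufs1, the largest subunit and a carrier of iron-sulphur clusters, ran from 173 to 278 CPM (median 224) in Control kidneys and from 127 to 201 (median 176) in LOY kidneys. The difference of -0.41 ± 0.14 had the smallest p of all members and did not pass (adjusted p = 0.141 in edgeR). The lowest values belonged to LOY animals 10 and 8, so the kidney that was highest for most members was low for this gene.

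Complex II, succinate dehydrogenase, also belongs to the citric acid cycle, and it had 3 tested members. Sdha, the catalytic flavoprotein, ran from 627 to 935 CPM (median 802) in Control kidneys and from 379 to 677 (median 610) in LOY kidneys. Its log2 fold change was -0.48 ± 0.17 (adjusted p = 0.145 in edgeR), the groups overlapped, and LOY animals 10 and 8 were lowest. Sdhb, the iron-sulphur subunit, differed by 0.12 ± 0.17 and the membrane anchor Sdhc by 0.04 ± 0.11.

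**Figure D2:**
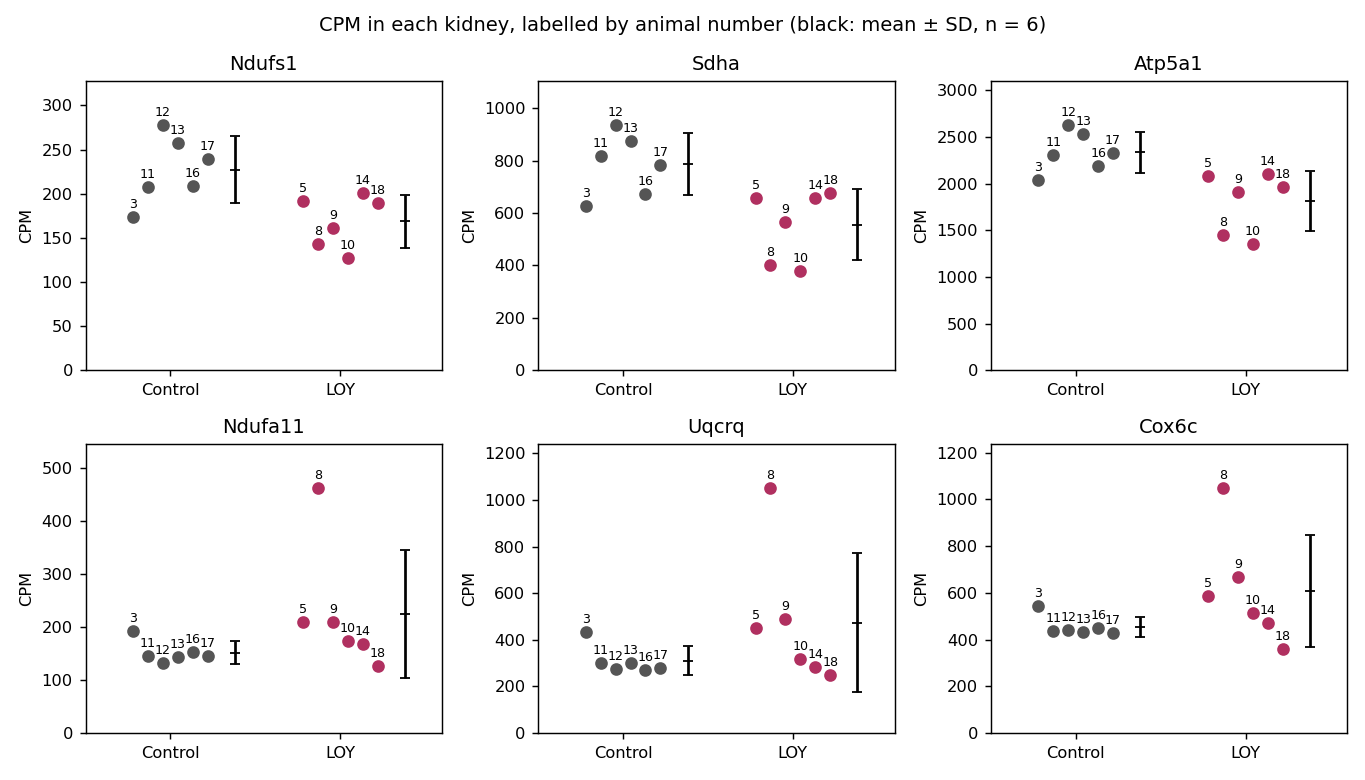
CPM of 6 members (vertical axes) in each Control and LOY kidney (horizontal axes), points labelled with the animal number and black marks giving the mean ± SD of 6 kidneys. LOY animal 8 is highest for Ndufa11, Uqcrq and Cox6c, whereas LOY animals 8 and 10 are lowest for Ndufs1, Sdha and Atp5a1.

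In complex III, which passes electrons from ubiquinol to cytochrome c, the small subunits and the core parted. All 4 small subunits were positive, with a median of 0.43. Uqcrq ran from 271 to 434 CPM (median 289) in Control kidneys and from 247 to 1052 (median 384) in LOY kidneys, a log2 fold change of 0.63 ± 0.30 (adjusted p = 0.22 in edgeR). Uqcr10 differed by 0.42 ± 0.21. The core protein Uqcrc2 ran from 403 to 506 CPM (median 450) in Control kidneys and from 332 to 437 (median 388) in LOY kidneys, and differed by -0.21 ± 0.10 (adjusted p = 0.236 in edgeR). Uqcrc1, its partner in the core, differed by 0.04 ± 0.12, and the Rieske protein Uqcrfs1 by -0.05 ± 0.13.

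In complex IV, cytochrome c oxidase, 13 of 15 log2 fold changes were positive. Cox6c ran from 427 to 543 CPM (median 438) in Control kidneys and from 358 to 1050 (median 551) in LOY kidneys, a log2 fold change of 0.44 ± 0.21 (adjusted p = 0.218 in edgeR). Its 6 LOY values bracketed the Control range. Cox4i1, the most abundant subunit of this complex by CPM, differed by 0.19 ± 0.19. The exceptions were Cox5a (-0.05 ± 0.12) and Cox7a2l (-0.07 ± 0.09), the latter a factor that joins complexes III and IV.

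Several complex IV subunits come as a common form and a form restricted to certain tissues, and kidney showed mostly the common form. Cox4i1 had a mean of 1044 CPM against 1.58 for the lung-rich and hypoxia-linked Cox4i2. Cox6a1 had 821 against 1.24 for the heart and muscle form Cox6a2, and Cox6b1 had 421 against 12.3 for the testis form Cox6b2. Cox6b2 ran from 7.98 to 12.7 CPM (median 9.49) in Control kidneys and from 9.29 to 26.3 (median 12.4) in LOY kidneys, a log2 fold change of 0.62 ± 0.23 (adjusted p = 0.164 in edgeR). Cox6b1 differed by 0.40 ± 0.23, Cox6a1 by 0.34 ± 0.20 and Cox8a by 0.24 ± 0.19. The heart and muscle form Cox7a1, at 13.0 CPM, differed by 0.38 ± 0.25. Cox4i2 (0.69 ± 0.54) and Cox6a2 (0.64 ± 0.58) had the largest positive values and the widest errors. The Cox4i2 value rested on LOY animal 8, at 6.41 CPM beside at most 1.81 in the other LOY kidneys, and it was -0.18 without that kidney.

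In complex V the alpha and beta subunits of the head leaned down, the peripheral stalk and the accessory membrane subunits leaned up, and the c ring was split. Of the 5 subunits of the F1 head and central stalk, 4 were negative (median -0.14), among them Atp5d (-0.14 ± 0.11) and Atp5c1 (-0.04 ± 0.19). The positive one, Atp5e, had the highest value of complex V (0.61 ± 0.31). These 3 are named here after their values were seen. Atp5b, the catalytic beta subunit and the most abundant member by CPM, ran from 2921 to 3353 CPM (median 3035) in Control kidneys and from 1725 to 2969 (median 2591) in LOY kidneys. It differed by -0.29 ± 0.14 (adjusted p = 0.222 in edgeR). Atp5a1, the alpha subunit, ran from 2037 to 2627 CPM (median 2317) in Control kidneys and from 1358 to 2099 (median 1937) in LOY kidneys, and differed by -0.35 ± 0.14 (adjusted p = 0.176 in edgeR). LOY animals 10 and 8 were lowest for both.
The 3 tested accessory subunits of the membrane part were positive (median 0.34), and so were 3 of 4 subunits of the peripheral stalk (median 0.32). Atp5l, a membrane subunit, differed by 0.30 ± 0.14. Of the 3 genes that encode the proton-carrying c subunit, Atp5g1 differed by 0.44 ± 0.22, and the other two were slightly negative (lowest -0.06, median of the 3 genes -0.02). Atp5s, which is no subunit, differed by -0.05 ± 0.13. Atp5g1, Atp5g2, Atp5h, Atp5l and Cox7c share at least 50% of their 50-base words with other annotated genes, so their counts can hold reads of such copies.

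**Figure D3:**
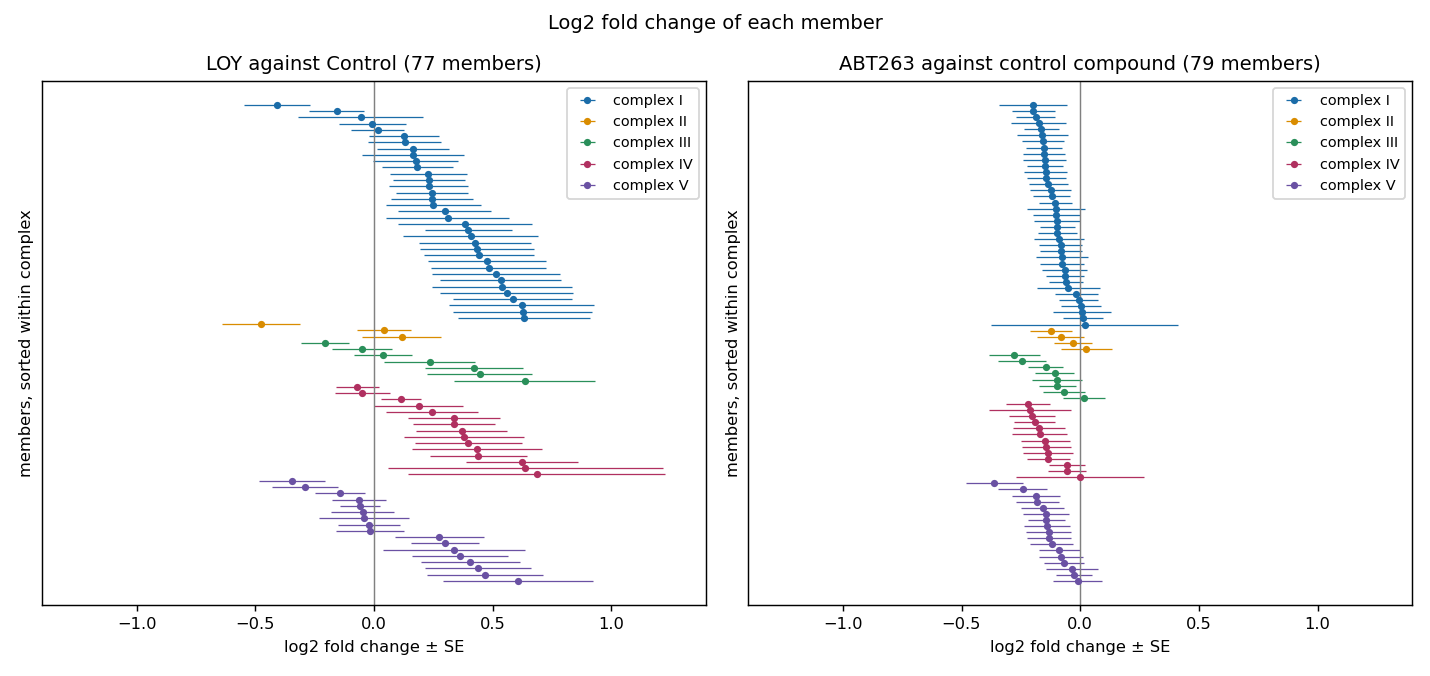
Log2 fold change ± SE (horizontal axis) of each tested member, sorted within its complex (vertical axis, colours by complex), with Cox8b (1.95 ± 1.36 for ABT263) left out of the right plot. The LOY values are mostly positive (59 of 77) with a negative end in complexes I, II, III and V, and the ABT263 values cluster just below 0.

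Over all kidneys, the LOY differences ran along with transcript length. Lengths were taken from coding transcripts of GENCODE M21 and were found for 76 of the 77 members. Across the members, Pearson's r between log2 length and log2 fold change was -0.59 and Spearman's rho -0.49, against -0.29 and -0.32 across 14586 genes tested, and genes share these libraries and are not replicates. Members of at most 709 nt had a median of 0.38 (35 of 38 positive) and longer ones 0.12 (23 of 38 positive). With animal number above 10 as a term the medians of short and long members were 0.03 and -0.06. Among animals numbered above 10 alone they were -0.09 and -0.13, both negative. All 621 tested genes of at most 709 nt had a median of 0.36, close to that of the short members, and longer genes one of 0.01. Among ribosomal protein genes r was -0.39 for 83 cytosolic and -0.35 for 75 mitochondrial ones. Ndufs1, Sdha, Uqcrc2, Atp5a1 and Atp5b, named above as lower, have transcripts of 1896 to 2900 nt. Of the complex I accessory subunits named as higher, Ndufa11 has 545 nt and Ndufa5 has 875 nt, so role and length overlapped without coinciding, and their separate parts were not tested. In LOY animal 8 the score of the short members was 1.08 and that of the long members 0.54.

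**Figure D4:**
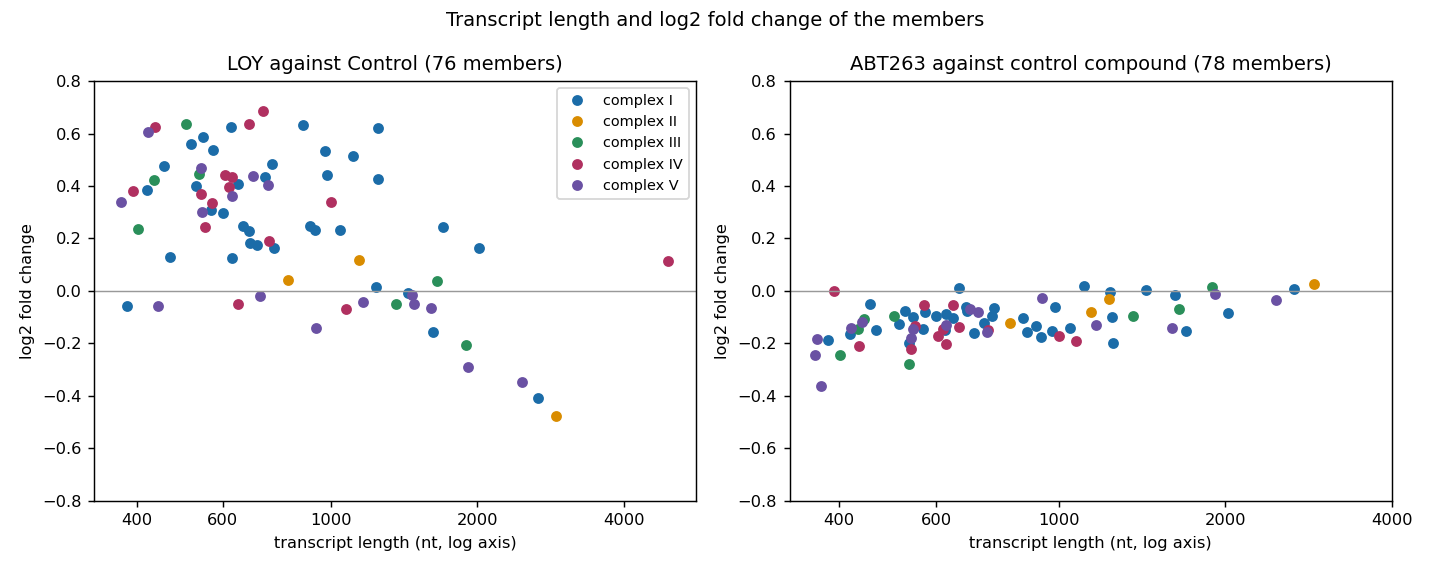
Transcript length (horizontal axis, nt, log axis) against log2 fold change (vertical axis) of each member with a length, coloured by complex, for both comparisons and without Cox8b. In the LOY comparison the longest catalytic subunits lie below 0 and most short members above it, while the ABT263 values lie in a narrow band.

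The genes around the respiratory chain gave 0 calls in either direction in every list in edgeR. DESeq2 called 1 of these genes higher (Pprc1) and 1 lower (Lrpprc). Limma voom called both of these, and also Foxred1, an assembly factor of complex I, lower and Rpl12, Rps12 and Rps21 higher, the last 2 and Foxred1 being named here after their values were seen. Of 18 genes of the citric acid cycle and pyruvate dehydrogenase 16 were negative (median -0.19). At an unadjusted p under 0.05, 5 of the 18 were lower (9.33% of all genes). Among the negative ones were Idh2 (-0.36 ± 0.14), which makes NADPH in mitochondria, and Sucla2 (-0.35 ± 0.14), a succinyl-CoA ligase subunit. Of 17 regulators of mitochondrial biogenesis 12 were negative (median -0.24). At an unadjusted p under 0.05, 6 of the 17 were lower (9.33% of all genes) and 1 was higher (13.5%). Ppargc1a, the coactivator PGC-1 alpha, ran from 37.95 to 91.2 CPM in Control kidneys and from 26.7 to 69.4 in LOY kidneys, and differed by -0.50 ± 0.23 (adjusted p = 0.21 in edgeR).
Gabpa differed by -0.41 ± 0.19, Tfam by -0.20 ± 0.11, Nrf1 by -0.03 ± 0.12 and Esrra by 0.02 ± 0.16. Pprc1, a relative of PGC-1 alpha that responds to growth signals, came nearest of these to the threshold (0.50 ± 0.12, adjusted p = 0.0597 in edgeR), with 16.8 to 23.2 CPM in Control and 22.1 to 33.1 in LOY kidneys. It passed in DESeq2 (0.49, adjusted p = 0.0105) and in limma voom (0.41, adjusted p = 0.0375).
Lrpprc, which stabilises mitochondrial mRNAs, differed by -0.35 ± 0.10 (adjusted p = 0.105 in edgeR) and passed in DESeq2 (-0.36, adjusted p = 0.0224) and limma voom (-0.34, adjusted p = 0.0261). Cycs, cytochrome c, differed by 0.37 ± 0.17. Of the assembly factors, Nubpl of complex I differed by -0.65 ± 0.26, 2900010M23Rik (Uqcc2) of complex III by 0.73 ± 0.32 and Fam36a (Cox20) of complex IV by 0.39 ± 0.14. Of 75 mitochondrial ribosomal protein genes 61 were positive (median 0.20), led by Mrpl52 (0.69 ± 0.25). At an unadjusted p under 0.05, 6 of the 75 were higher (13.5% of all genes). Of 83 cytosolic ones 81 were positive (median 0.53, highest 0.84), and 63 were higher at an unadjusted p under 0.05 (13.5% of all genes). The smallest p among them belonged to Rpl12 (0.70 ± 0.24, adjusted p = 0.141 in edgeR), which passed in limma voom (0.45, adjusted p = 0.0444) and without Control animal 3 and LOY animal 8 (0.50, adjusted p = 0.0339 in edgeR).

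The second comparison asked whether the senolytic changed these genes in kidneys with a LOY blood system. No member passed the threshold, with 0 of 80 in either direction, and neither did any of the 16956 genes tested (0% higher and 0% lower) in edgeR. At an unadjusted p under 0.05, 0 members were higher (2.95% of all genes) and 7 lower (2.96%). DESeq2 called 16 genes higher (0.0945%) and 28 lower (0.165%) and limma voom 3 (0.0177%) and 8 (0.0472%), with 0 members among them. The log2 fold changes were small and mostly negative, with 8 of 80 positive (49.4% of all genes) and a median of -0.12 beside -0.003 over all genes. Complex medians were -0.10, -0.06, -0.10, -0.15 and -0.13 for I to V, and 17 of 17 members of complex V were negative.

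This lean also rested on few kidneys. ABT263 animal 16 had the lowest level of 71 of 80 members (it was lowest for 16.3% of all genes). Control-compound animals 6 and 9 had the highest of 43 (24.2% of all genes) and 21 (11.1%). The deviation score was 0.12, -0.02, 0.10 and 0.03 in control-compound animals 6, 8, 9 and 10, and -0.01, -0.24, -0.01 and 0.03 in ABT263 animals 15, 16, 17 and 18. Outside animal 16 the ABT263 values lay within the range of the control values. Without ABT263 animal 16 the median was -0.06, and without it and control-compound animal 6 the median was -0.03, with 27 of 80 positive.
The same animal 16 had the highest tubular injury score (1.76, against -0.96 to 0.59 in the other kidneys) and the lowest proximal tubule score (-0.30); their part in the result was not tested. The SD of log2 CPM was larger in the ABT263 group for 58 of 80 members (72.5%), against 41.9% of all genes. Animals 6 to 10 received the control compound and 15 to 18 ABT263, so animal number and compound cannot be told apart.

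The lowest value belonged to Atp5k, followed by Uqcrb and Uqcrh of complex III and by Atp5md. Atp5k, the e subunit that helps ATP synthase form dimers, had 49.98, 50.4, 61.4 and 42.1 CPM with the control compound and 36.9, 36.8, 39.9 and 44.9 with ABT263. It differed by -0.36 ± 0.12 (adjusted p = 0.691 in edgeR), and ABT263 animal 18 lay within the control range. Atp5md, another membrane subunit, had 145, 128, 153 and 123 CPM against 109, 102, 124 and 130, a difference of -0.24 ± 0.10. In the table of LOY and Control kidneys Atp5k had leaned the other way, at 0.34 ± 0.30.

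For 5 members all ABT263 values lay below all control values (2.34% of all genes), and for 0 above (1.93%). They were Ndufa6, Ndufa1, Uqcrb, Uqcr10 and Atp5j2, named here after their values were seen. Uqcrb, which binds near the ubiquinone site of complex III, had 121, 106, 120 and 108 CPM against 76.5, 88.5, 105 and 105. It differed by -0.28 ± 0.11 (adjusted p = 0.816 in edgeR), and the 2 groups lay less than 1 CPM apart. Ndufa6 had 139, 122, 138 and 118 CPM against 118, 104, 116 and 116 (-0.19 ± 0.08), and Ndufa1 100.3, 91.9, 97.6 and 93.3 against 90.0, 78.3, 88.6 and 84.4 (-0.16 ± 0.07). Uqcrh, the hinge protein of complex III, differed by -0.25 ± 0.10 and Cox7c by -0.22 ± 0.09.

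Sdha, Ndufs1, Atp5b, Atp5a1 and Uqcrc2, which had leaned lower in LOY kidneys, differed by less than their SE with ABT263. Sdha had 866, 780, 845 and 766 CPM with the control compound and 872, 672, 881 and 884 with ABT263 (0.02 ± 0.11). Ndufs1 differed by 0.01 ± 0.12, Atp5b by -0.01 ± 0.10 and Uqcrc2 by 0.02 ± 0.09. Atp5a1, named here for its LOY value, differed by -0.04 ± 0.11. The other named subunits of complexes I to IV differed by 0.01 ± 0.08 (Ndufb6), -0.08 ± 0.10 (Sdhb), -0.12 ± 0.09 (Sdhc), -0.07 ± 0.09 (Uqcrc1), -0.15 ± 0.10 (Cox4i1) and -0.19 ± 0.09 (Cox7a2l). Across 78 members with a length and without Cox8b, r between log2 length and log2 fold change was 0.52 and rho 0.46, and across 16521 genes they were 0.09 and 0.14. With Cox8b the members' r was -0.01 and rho 0.40.

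In the lists around the chain 0 genes passed in edgeR, DESeq2 or limma voom. The 13 mitochondrially encoded transcripts, which supply the other subunits of these complexes and are listed in the ABT263 table only, had a median of -0.03, with 5 of 13 positive and a range of -0.72 to 1.09. At an unadjusted p under 0.05, 2 of them were lower (2.96% of all genes) and 0 higher (2.95%). mt-Co2, a catalytic subunit of complex IV, had 1445, 1196, 1199 and 927 CPM against 814, 672, 924 and 553, a difference of -0.68 ± 0.17 (adjusted p = 0.657 in edgeR) with all ABT263 values lower. mt-Atp6 differed by -0.72 ± 0.27, with control-compound animal 6 at 2029 CPM and the others at or below 1255. The highest value was that of mt-Nd4l, a complex I subunit (1.09 ± 0.62, adjusted p = 0.847 in edgeR), named here after its value was seen. Ppargc1a leaned up (0.21 ± 0.11), while Esrra (-0.03 ± 0.10), Nrf1 (-0.02 ± 0.10), Gabpa (-0.06 ± 0.10), Tfam (-0.05 ± 0.08), Cycs (-0.10 ± 0.13) and Idh2 (-0.13 ± 0.14) lay near 0. The assembly factor Uqcc3 differed by -0.24 ± 0.09, and Taco1, which activates translation of a complex IV subunit, by 0.24 ± 0.09. Mrpl40 differed by -0.28 ± 0.09 and Rps12 by -0.34 ± 0.14.

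Cox8b, the form of a complex IV subunit found in heart, muscle and brown fat, had a pattern of its own. In the LOY table it was too low for the test, with 9.47 CPM in Control animal 3 and at most 0.532 in the other Control kidneys, and with 3.95, 3.41 and 1.46 CPM in LOY animals 10, 9 and 8 and at most 0.333 in the others. Ucp1, the uncoupling protein of brown fat, was 45.0 CPM in Control animal 3 and 15.1, 4.62 and 4.37 in LOY animals 10, 9 and 8. With the control compound Cox8b had 0.526, 0, 1.08 and 3.95 CPM where Ucp1 had 0.818, 0.190, 7.79 and 24.3.
With ABT263 Cox8b had 10.9, 0, 2.28 and 8.64 CPM where Ucp1 had 50.6, 0.115, 13.6 and 29.5. Cox8b and Ucp1 were therefore high in the same kidneys in both tables. The log2 fold change of Cox8b for ABT263 was 1.95 ± 1.36 (adjusted p = 0.856 in edgeR). Cox7a1, the other form typical of muscle and brown fat, differed by 0.00 ± 0.27.

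**Figure D5:**
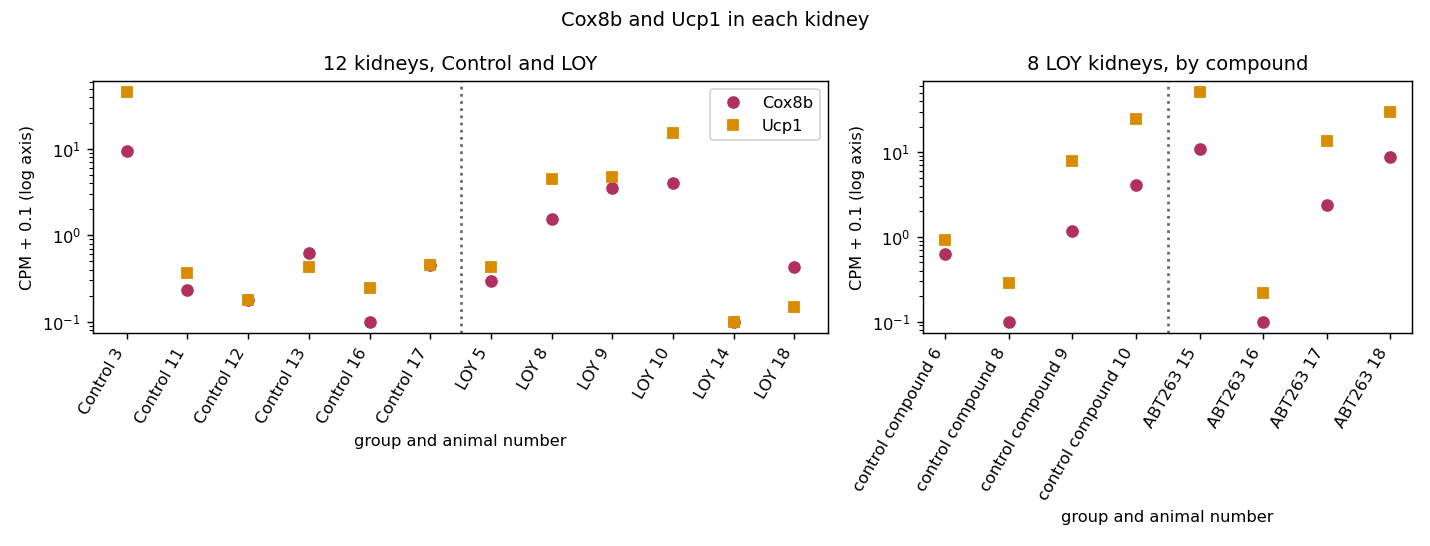
Cox8b and Ucp1 (vertical axis, CPM plus 0.1 on a log axis) in each kidney (horizontal axis, group and animal number), with a dotted line between groups. Both are highest in Control animal 3 in the left plot and in ABT263 animals 15 and 18 in the right plot.

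Per kilobase of transcript the order of levels in the LOY table began with Atp5b (1462 CPM per kb), Cox6a1 (1438) and Cox4i1 (1402), followed by Cox8a (1088), Ndufa4 (999) and Atp5g3 (997). In the ABT263 table Atp5b also came first, at 1380 CPM per kb. A few members were counted very differently in the tables. Of 78 symbols present in both, 6 were over 5-fold lower in the LOY table. They were Sdhd (0.0244 against 232 CPM), Uqcr11 (0 against 106), Cox7a2 (0.525 against 170), Ndufa8 (0.582 against 124), Ndufa6 (3.18 against 121) and Ndufa12 (3.59 against 49.4).
Ndufb2 went the other way, with 101 against 13.9 CPM, and the other 71 symbols with at least 1 CPM had ABT263-table to LOY-table ratios of 0.263 to 2.06. These genes encode constitutive subunits, so their low values in the LOY table are not read as absence. The tables were made and normalised apart, the cause was not tested, and no difference between their groups was drawn from these levels.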

How the data were processed

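RNA sequencing of 20 kidneys was deposited by the authors as gene counts in 2 tables, whole numbers that were used as counts. Per the submitters' processing notes the build was mm10. The aligner, counter and strand setting were not given in the sources used here. Counts without a gene name (0.223% to 0.401% in the LOY table) were left out. Each table was fitted on its own with the robust quasi-likelihood test of edgeR 4.0.16 (R 4.3.3) after TMM scaling and after filterByExpr (count of at least 10, total of at least 15). P-values were adjusted by Benjamini-Hochberg over all genes tested. Each SE was taken as the absolute log2 fold change divided by the square root of F. DESeq2 1.42.0 and limma 3.58.1 (voom with sample quality weights) were alternatives, and the edgeR steps were tested on simulated data. Log2 CPM used a prior count of 2. Groups came from the labels, and each library was 1 animal. Replicates were checked as distinct libraries. Lengths came from GENCODE M21, and promoters from RefSeq (GRCm38.p6).

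Members and gene lists were chosen with earlier results of these data known. Genes named were, for each complex, the member of highest CPM and the 2 of smallest p in each direction, tissue forms of complex IV, symbols that are not subunits, and for each surrounding list up to 2 of smallest p with Ppargc1a, Esrra, Nrf1, Gabpa, Tfam and Cycs. A part of the genes under this rule is printed, picked with their values known. Grouping by role within a complex was made after values were seen. Figures were drawn with matplotlib 3.10.9 in Python 3.11.15. Protein levels were not analysed here.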

Additional observations from a re-analysis of the deposited data

Results flagged for a closer look

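In groups of 4 to 6 kidneys, a value was singled out where the highest or lowest kidney stood far from the rest of its group (Dixon's test at 95%). This held for 33 values over 176 groups tested. Chance gives about 1 in 20 for a single group. The groups here share kidneys and are not independent, so their count cannot be set against that rate.

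Control animal 3 was far above the other Control kidneys for 15 of them. These were the deviation scores of all members (0.13), of complex I (0.16) and of complex III (0.11), and, in CPM, Ndufa4 (544), Ndufa11 (193), Ndufa5 (179), Uqcrq (434), Uqcr10 (370.3), Cox4i1 (1169), Cox6c (543), Cox5a (356), Atp5g1 (366), Cox6b1 (435), 2900010M23Rik (46.2) and Rpl12 (382). The kidney also had the highest Ucp1 and Cox8b of the LOY table.

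LOY animal 8 was far above the other LOY kidneys for 9 genes, namely Ndufa11 (463 CPM), Ndufa5 (463), Uqcrq (1052), Atp5g1 (772), Cox6b1 (899), Cox4i2 (6.41), Rpl12 (890.3), Atp5sl (160.1) and Mrpl52 (142). Control animal 16 was far below the other Control kidneys for Cycs (232 CPM).

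ABT263 animal 16 was far below the other ABT263 kidneys for 6 values. These were the deviation scores of all members (-0.24) and of complex II (-0.29), and, in CPM, Ndufa6 (104), Sdha (672), Uqcrc2 (269.7) and Idh2 (271). Control-compound animal 6 was far above its group for Cox7a2l (155 CPM) and far below it for Ndufs1 (228 CPM).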

How the results depend on the processing

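The number of members called was 0 in each comparison under every alternative scaling, test, filter and threshold and with each kidney left out, except that 1 member (Atp5sl) fell among the animals numbered above 10 alone. The members' median stayed positive for LOY in all settings except that last one, where it was -0.12, and it stayed negative for ABT263 in all settings. With each kidney left out it ranged from 0.07 to 0.37 for LOY and from -0.14 to -0.06 for ABT263. Of 2018 recomputed values of 92 results, 1894 counted as the same, 104 gene values changed sign, 13 came past the threshold and 7 medians or counts moved. For a gene, the same meant that direction and side of the threshold were kept. For a median it meant a shift smaller than the spread between kidneys (0.34 for all LOY members), whatever its sign. The LOY median of 0.01 with animal number as a term thus counted as the same. Of the values that changed sign, none had passed the threshold, most were near 0, and the cause was not tested. No paired analysis was possible because the groups compared within a table share no animal number. Counts of 6 and 4 kidneys a group limit what differences could be seen.

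In limma voom, the LOY value changed sign for Cox5a (0.0028), Cox4i2 (-0.33), Cox6a2 (-0.29), Esrra (-0.066) and Nrf1 (0.061). Without a filter on low counts, the LOY value changed sign for Esrra (-0.0066). With animal number above 10 as a term, the LOY value changed sign for Ndufa4 (-0.084), Sdhb (-0.080), Sdhc (-0.063), Uqcrc1 (-0.070), Cox4i1 (-0.055), Cox6a2 (-0.47), Cox8a (-0.047) and Esrra (-0.089). Among animals numbered above 10 alone, the LOY value changed sign for Ndufa4 (-0.12), Ndufa5 (-0.065), Sdhb (-0.22), Sdhc (-0.14), Uqcrc1 (-0.12), Uqcrq (-0.073), Uqcr10 (-0.054), Cox4i1 (-0.14), Cox6c (-0.051), Atp5l (-0.028), Atp5g1 (-0.10), Cox4i2 (-0.12), Cox6a1 (-0.082), Cox6a2 (-1.55), Cox6b1 (-0.11), Cox7a1 (-0.047), Cox8a (-0.12), 2900010M23Rik (-0.020), Esrra (-0.18) and Tfam (0.0086). Without LOY animals 8 and 10, the LOY value changed sign for Sdhb (-0.034), Uqcrc1 (-0.035), Cox4i2 (-0.49), Esrra (-0.049) and Nrf1 (0.017). Without Control animal 3 and LOY animal 8, the LOY value changed sign for Sdhb (-0.039), Sdhc (-0.0025), Uqcrc1 (-0.031), Cox4i2 (-0.17), Esrra (-0.13) and Nrf1 (0.044). Without LOY animals 8, 10 and 18 (chosen after seeing the data), the LOY value changed sign for Uqcrfs1 (0.076), Cox5a (0.088), Cox4i2 (-0.54) and Nrf1 (0.10). With upper-quartile factors, the ABT263 value changed sign for Atp5b (0.0091). With library totals alone, the ABT263 value changed sign for Atp5b (0.0055). In limma voom, the ABT263 value changed sign for Sdhb (0.010) and Atp5b (0.035). Without a filter on low counts, the ABT263 value changed sign for Cox7a1 (-0.0020). Without control-compound animal 6 and ABT263 animal 16, the ABT263 value changed sign for Sdhb (0.043), Uqcrc1 (0.0032), Atp5b (0.061), Idh2 (0.019), Nrf1 (0.0081), Gabpa (0.045) and Tfam (0.031). Leaving out each kidney in turn gave both signs in the LOY comparison for Sdhb (-0.059 to 0.20), Sdhc (-0.019 to 0.084), Uqcrc1 (-0.054 to 0.086), Uqcrfs1 (-0.11 to 0.012), Cox4i2 (-0.18 to 0.89), Atp5s (-0.12 to 0.0022), Atp5sl (-0.18 to 0.049), Esrra (-0.14 to 0.11) and Nrf1 (-0.12 to 0.020). Leaving out each kidney in turn gave both signs in the ABT263 comparison for Ndufb6 (-0.031 to 0.063), Ndufs1 (-0.060 to 0.13), Sdha (-0.011 to 0.12), Sdhb (-0.12 to 0.00051), Uqcrc2 (-0.017 to 0.092), Cox7a1 (-0.13 to 0.24), Atp5b (-0.046 to 0.064), Idh2 (-0.18 to 0.013), Esrra (-0.11 to 0.017), Nrf1 (-0.060 to 0.016) and Gabpa (-0.13 to 0.016).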
